A study of Rattus norvegicus with 8 samples.

Results

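RNA of H9C2 cells expressing a phospho-resistant form of the nuclear receptor PPARα was compared with RNA of cells expressing the fluorescent protein alone. H9C2 cells are cardiomyoblasts, an established line that came from the heart of a rat embryo. The receptor form, S280A, has alanine in place of serine 280, so that this position cannot be phosphorylated, and was fused to YFP. The libraries were chosen by their labels, YFP-PPARα-S280A against YFP, and make up 4 of the 8 libraries of the series, 2 in each group. Of the 32258 features counted, 12407 had enough exon reads to be tested. All cells, controls included, grew in serum-containing medium and carried the pDC316 vector for 2 days, so that the control differs from the S280A group in the receptor insert. The other groups of the series, wild-type receptor (WT) and the phospho-mimicking S280D form, entered only the estimate of spread and the tests of S280A against them. Whether the 2 libraries of a group were grown as separate cultures is not labelled. The p-values therefore reflect only how far these libraries spread, which may be technical.

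PPARα pairs with a retinoid X receptor (RXR) and binds direct repeats of a short sequence, AGGTCA, spaced by a single base. When bound by fatty acids or their derivatives it exchanges corepressors for coactivators and raises transcription of genes for fatty acid uptake, mitochondrial and peroxisomal oxidation, ketone body synthesis and lipid storage. It is known in heart muscle for matching fatty acid oxidation to fuel supply, and several protein kinases phosphorylate it.

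The start regions of Cav2, Ucp2 and Angptl4 are shown because Cav2 had the smallest p-value among genes with an assigned symbol other than Ppara, and Ucp2 and Angptl4 had the smallest among the PPAR targets measured. They come from the RefSeq promoter table of build GRCr8, 250 bases before to 50 after the annotated start, and capitals mark a match to AGGTCA on either strand. The windows are chr4:46582431-46582730 on the plus strand for Cav2, chr1:164251123-164251422 on the plus strand for Ucp2 and chr7:15258632-15258931 on the minus strand for Angptl4.
Cav2: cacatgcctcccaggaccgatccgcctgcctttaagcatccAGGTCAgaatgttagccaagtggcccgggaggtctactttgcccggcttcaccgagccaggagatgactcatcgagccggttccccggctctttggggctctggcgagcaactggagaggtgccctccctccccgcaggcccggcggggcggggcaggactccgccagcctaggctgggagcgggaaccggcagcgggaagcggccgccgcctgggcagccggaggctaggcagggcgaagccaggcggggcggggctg
Ucp2: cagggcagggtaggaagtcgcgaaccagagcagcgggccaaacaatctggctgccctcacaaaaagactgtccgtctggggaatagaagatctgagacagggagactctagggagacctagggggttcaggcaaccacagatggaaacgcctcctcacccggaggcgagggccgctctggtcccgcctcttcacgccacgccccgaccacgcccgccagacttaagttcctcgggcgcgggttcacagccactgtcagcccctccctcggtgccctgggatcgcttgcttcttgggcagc
Angptl4: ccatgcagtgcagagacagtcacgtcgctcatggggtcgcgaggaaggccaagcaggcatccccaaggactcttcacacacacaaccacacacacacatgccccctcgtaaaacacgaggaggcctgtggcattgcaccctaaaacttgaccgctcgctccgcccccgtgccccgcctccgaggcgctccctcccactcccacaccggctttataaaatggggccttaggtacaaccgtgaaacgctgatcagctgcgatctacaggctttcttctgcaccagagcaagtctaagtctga
Cav2 held 1 match, on the plus strand, whose first base lies at -209 from the start, and the windows of Ucp2 and Angptl4 held none. Of 33469 promoter windows 5415, or 16.2%, held AGGTCA on either strand, and of the 29 windows of tested PPAR targets 5 did, or 17.2%. The exact direct repeat, AGGTCA followed by any base and AGGTCA again, was in 18 of all windows (0.0538%) and in 0 of those 29. A missing match says only that these letters are not in the window, and no binding data were used here.

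Differences between libraries were of like size within and between groups. Exon reads totalled 17252523 and 19070170 in YFP, and 14693406 and 14018785 in S280A. Both YFP libraries were named as lane 1 in the column headers, S280A replicate 1 as lane 2 and S280A replicate 2 as lane 1. The median absolute log2 difference between libraries was 0.235 between the YFP replicates and 0.251 between the S280A replicates. Across groups it ran from 0.204, between S280A replicate 2 and YFP replicate 1, to 0.332, between S280A replicate 2 and YFP replicate 2. Pairs of libraries from different groups were thus both closer and farther apart than replicates. Intron reads took 11% and 11.9% of the YFP libraries and 14.2% and 15.9% of the S280A libraries. A single feature, LOC100909555, held many of the intron reads, as given below. The part of this gap in the differences below was not tested.

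The delivered receptor separated the groups. Ppara (chromosome 7, 126619196 to 126681752, Rnor_6.0) stood at 74.4 and 59.5 CPM (counts scaled by library size and TMM factor) in YFP and at 17400 and 13736 CPM in S280A. Both S280A libraries lay far above both YFP libraries, at a log2 fold change of 7.86 ± 0.34 (SE, edgeR adjusted p = 8.42e-07), or 233-fold. Reads that cross exon junctions gave 8.05 ± 0.32. Reads within its introns also rose, from 19.1 and 16.9 CPM to 235 and 249.9 CPM, a log2 fold change of 3.76 ± 0.36 (edgeR adjusted p = 3.97e-04). Endogenous and delivered reads were counted together, and which of them gave the intron reads was not tested. S280A did not pass against WT or S280D in Ppara, with log2 differences of -0.23 ± 0.25 and -0.19 ± 0.25 (adjusted p = 0.516 and 0.565).

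Besides the receptor, few features differed from YFP by more than the replicate spread. In bulk RNA fewer cells of a type and less RNA per cell cannot be told apart. At an adjusted p under 0.05 edgeR called 5 features higher, Ppara among them (0.0403% of those tested), and 0 lower (0%). An unadjusted p under 0.05 was reached by 734 features with higher values (5.92%) and 705 with lower values (5.68%), or 11.6% in both directions. Both S280A libraries lay above both YFP libraries for 2227 features (17.9%) and below them for 2463 (19.9%), and 47.2% of all features had a positive fold change. In simulated counts of the same 12407 features, 200 with a mean of at least 1 CPM were given changes of 1.5-fold to 8-fold. The test recovered 82% of changes of 2-fold and 34% of those of 1.5-fold, with 7 false calls. The simulated spread followed only the trend with level and did not vary from gene to gene. Recovery in the real data may therefore be lower.

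**Figure D1:**
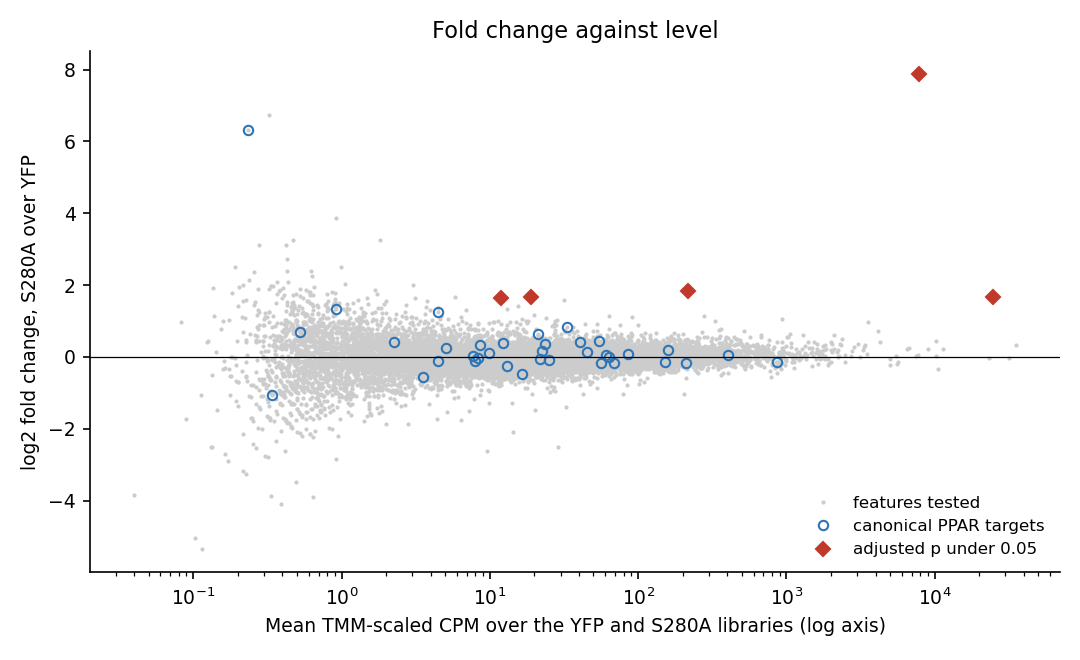
Log2 fold change of S280A over YFP (vertical axis) against the mean TMM-scaled CPM of the 4 libraries (horizontal log axis) for the 12407 features tested (grey). Red diamonds are the 5 features with an adjusted p under 0.05, of which Ppara is the highest, and blue circles are the 36 canonical PPAR targets tested, none of them called.

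The other 4 features that rose have no assigned symbol. They lie on chromosome 1 (LOC100909555, 11963836 to 11968939), chromosome 3 (LOC100912604, 14588870 to 14591974), chromosome X (LOC100361854, 115495698 to 115496045) and chromosome 13 (RGD1564839, 53283855 to 53284229). LOC100909555 went from 12426 and 10893 CPM in YFP to 27875 and 46959 CPM in S280A, and nearly all of its reads, 99.98%, were unique. Its log2 fold change was 1.68 ± 0.23 on total reads (edgeR adjusted p = 0.0358), and its intron reads gave 1.22 (edgeR adjusted p = 0.139). Those intron reads stood at 125200 and 97120 CPM in YFP and at 186800 and 332100 CPM in S280A. How much of the gap in intron share between the groups they make up was not tested. For LOC100912604, LOC100361854 and RGD1564839 the unique reads made up 0.222%, 3.81% and 16.2% of exon reads, so that counts may be shared with near-identical copies and their values are uncertain. Their log2 fold changes were 1.85, 1.67 and 1.63, and on unique reads edgeR gave adjusted p of 0.33, 0.33 and 0.312. S280A also lay above WT and S280D for LOC100909555, LOC100912604 and LOC100361854 (adjusted p of 0.00242 to 0.0242), while RGD1564839 did not pass against either (0.834 and 0.319). Without YFP replicate 2 only Ppara and LOC100912604 were called. Without S280A replicate 2 the adjusted p of RGD1564839, LOC100361854 and LOC100909555 was 0.068, 0.0852 and 0.0852. Without S280A replicate 1 that of LOC100361854 was 0.0728, and without WT replicate 1 or 2 that of LOC100909555 was 0.0886 or 0.067.

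Calls depended on the tool and on which libraries entered the fit. DESeq2 called 73 features higher (0.713%) and 27 lower (0.264%), and edgeR fitted to only the 4 libraries called 26 (0.22%) and 12 (0.102%). Without YFP replicate 1, so that YFP replicate 2 stood alone for the control, edgeR called 90 higher (0.701%) and 41 lower (0.319%). Without YFP replicate 2 it called 2 and 0, and without S280A replicate 1, which leaves only lane 1 on both sides, 9 and 2. The authors' deposited table called 50 higher (0.155%) and 21 lower (0.0651%), and of these 71 the edgeR test gave all the same direction and called 5. Features with under 50% unique reads were 10% of all tested. They made up 35.6% and 55.6% of the DESeq2 calls higher and lower, and 38 of the 71 calls in the authors' deposited table.

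**Figure D2:**
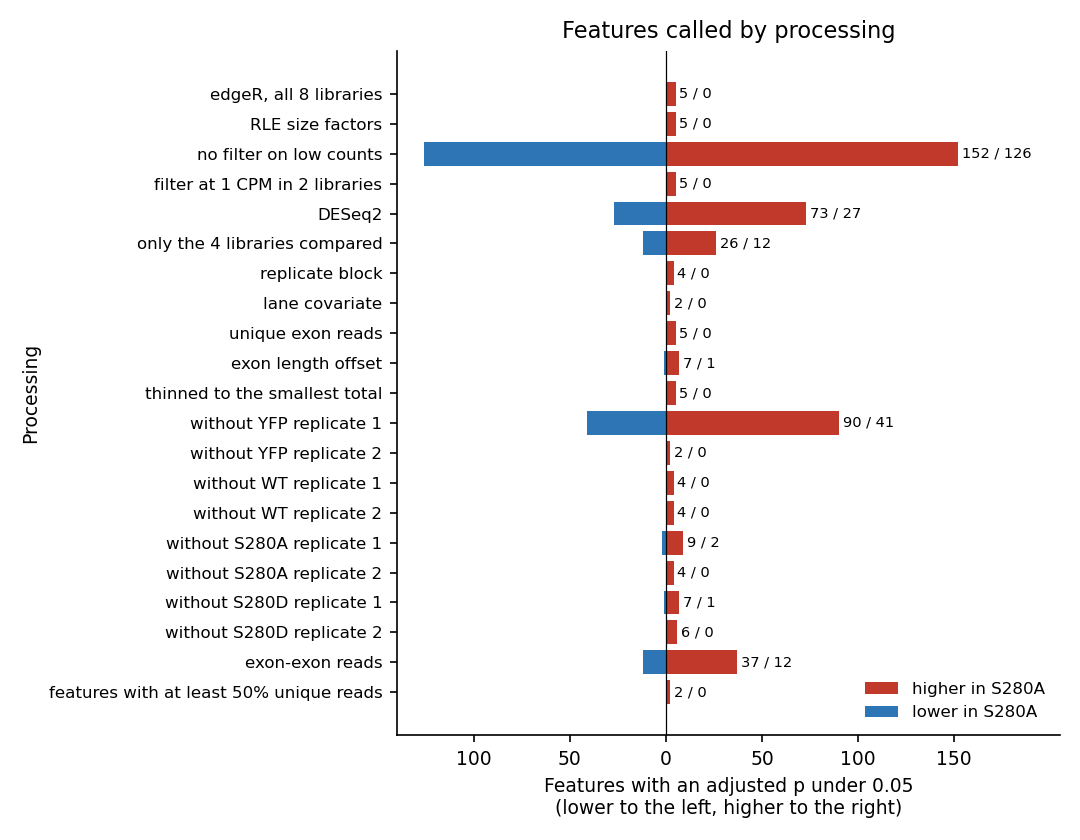
Number of features with an adjusted p under 0.05 (horizontal axis, lower in S280A to the left in blue, higher to the right in red) under the processings drawn (vertical axis), with both counts printed beside the bars. Not drawn is a crossed pairing of replicates in only the 4 libraries compared, which gave 354 higher and 180 lower. The edgeR fit of all 8 libraries gave 5 and 0, and the largest counts shown, 152 and 126, came with no filter on low counts.

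Among genes with an assigned symbol and mostly unique reads, none besides Ppara passed, and the 12 with the smallest p on the higher side had adjusted p of 0.103 to 0.137 in edgeR. The rule that chose these 12 used small p and groups that do not overlap. DESeq2 called all 12, but on the same counts, so that this is no independent support. Unique and junction reads come from the same libraries, and a pass there is no independent support either. Cav2 encodes caveolin-2, a scaffold protein of membrane caveolae. It stood at 7.61 and 7.31 CPM in YFP and at 23 and 14.5 CPM in S280A, without overlap, as the rule asked. The log2 fold change was 1.33 ± 0.21 (edgeR adjusted p = 0.103). On unique reads, where edgeR called 5 features higher (0.0423%) and 0 lower (0%), Cav2 rose with an adjusted p of 0.0424, but its reads across exon junctions gave 0.06 (adjusted p = 0.99). Its neighbour Cav1 (chromosome 4, 44597123 to 44630200), named after its values were seen, stood at 357 and 398 CPM in YFP and 338 and 296 CPM in S280A, a log2 fold change of -0.25 ± 0.12 (adjusted p = 0.433).

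**Figure D3:**
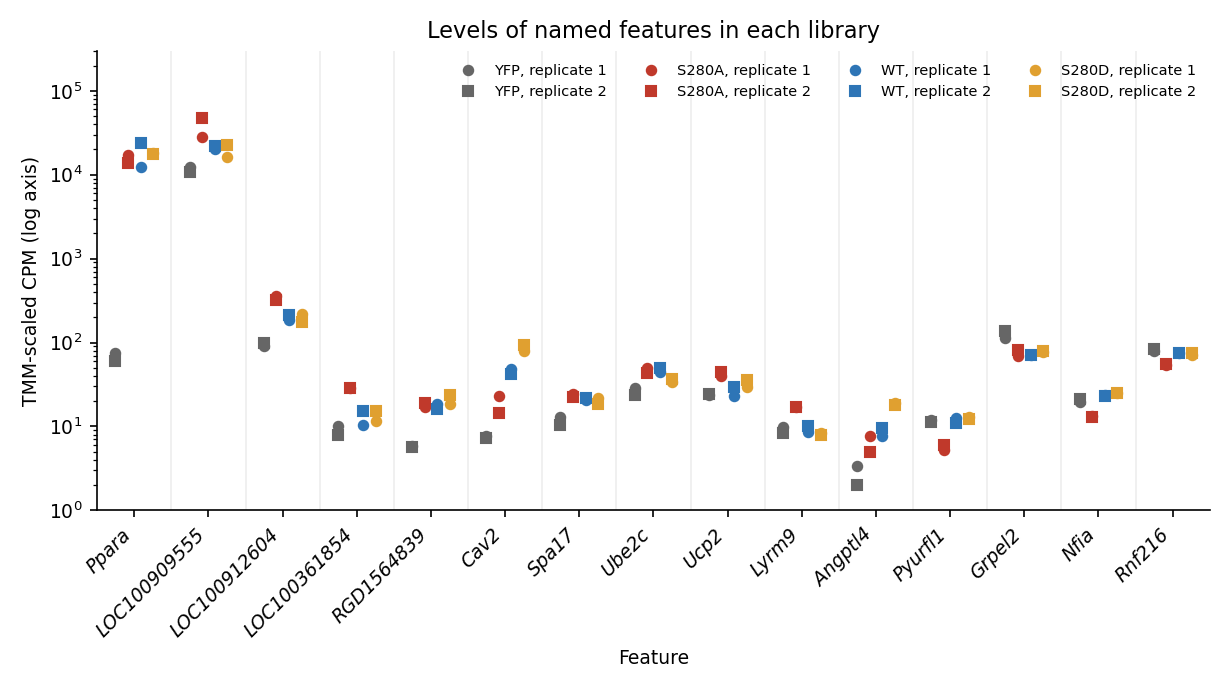
TMM-scaled CPM (vertical log axis) of 15 named features (horizontal axis) in each of the 8 libraries, with circles for replicate 1 and squares for replicate 2. Grey is YFP, red S280A, blue WT and yellow S280D; Cav2 is between YFP and the other constructs in S280A, and Lyrm9 is highest in S280A.

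Ucp2 encodes a mitochondrial carrier of the uncoupling protein family and is a PPAR target. It stood at 23.5 and 24.1 CPM in YFP and at 39.6 and 44.9 CPM in S280A, a log2 fold change of 0.83 ± 0.17 (edgeR adjusted p = 0.137, DESeq2 adjusted p = 0.00287). The 4 values did not overlap, as the rule asked. Leaving out any of these libraries moved the log2 fold change only between 0.75 and 0.91. Its intron reads overlapped between the groups, at 77.7 and 36.4 CPM in YFP and 71.2 and 129 CPM in S280A (log2 fold change 0.82, edgeR adjusted p = 0.471). Spa17, a sperm surface protein gene also transcribed in other tissues, stood at 13 and 10.4 CPM in YFP and 24.6 and 22.3 CPM in S280A, and passed on junction reads (adjusted p = 0.0272). Denr, which encodes a factor that helps ribosomes reinitiate and recycle, stood at 75.5 and 65.5 CPM against 148 and 113 CPM and likewise passed on junction reads (adjusted p = 0.0272). Ndufc1, a subunit of respiratory complex I, stood at 12.4 and 9.81 CPM against 21.9 and 20 CPM, and was the third of the 12 to pass on junction reads (adjusted p = 0.0146).

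The rest of the higher group were of mixed function, with no overlap between the S280A and YFP libraries because the rule asked for none. Ube2c, the E2 enzyme of the anaphase-promoting complex, stood at 28.9 and 23.5 CPM in YFP and 50 and 43.2 CPM in S280A, a log2 fold change of 0.83 ± 0.15. Gbp5, an interferon-induced GTPase, stood at 8.26 and 6.85 CPM against 16.4 and 14.1 CPM, at 1.02 ± 0.2. Lyrm9, a small protein gene of the LYR motif family, stood at 9.95 and 8.38 CPM against 17.1 CPM in both S280A libraries, at 0.9 ± 0.18. Map3k14, the NF-κB-inducing kinase, was at 0.67, the glutaredoxin gene Glrx2 at 0.74, the ER export receptor gene Cnih4 at 0.71 and Dcaf4, an adaptor of CUL4 ubiquitin ligases, at 0.95. None of these passed in edgeR.

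On the lower side the 12 genes of smallest p had edgeR adjusted p of 0.113 to 0.267. DESeq2 called 8 of them, on the same counts that chose them. Pyurfl1 stood at 11.8 and 11.3 CPM in YFP and 5.2 and 5.96 CPM in S280A, a log2 fold change of -1.06 ± 0.19 (adjusted p = 0.113). Grpel2, a nucleotide exchange factor of the mitochondrial HSP70, stood at 114 and 139 CPM against 69.6 and 81.6 CPM, at -0.74 ± 0.13 (adjusted p = 0.113). Nfia, a transcription factor of the nuclear factor I family, stood at 19.8 and 21.4 CPM against 13.2 and 12.8 CPM, at -0.66 ± 0.15 (adjusted p = 0.188). Both S280A libraries lay below both YFP libraries for these 3 genes because the rule asked for no overlap. The YFP replicates of Grpel2 were farther apart than those of the others.

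The other genes of this group, which did not pass in edgeR either, were of mixed function. The ubiquitin ligase gene Rnf216 stood at 78.8 and 84.3 CPM in YFP and 54.6 and 55.6 CPM in S280A, a log2 fold change of -0.57 ± 0.11. Slc25a4, the ADP/ATP carrier of muscle mitochondria, stood at 162 and 166 CPM against 116 and 122 CPM, at -0.46 ± 0.11. The DNA helicase gene Recql was at -0.67, Fibin at -0.64, Plekho2 at -0.59, Lbh at -0.54 and the tetraspanin gene Tspan3 at -0.61. Slc2a10, a facilitative glucose transporter gene, was at -1.06 and the small GTPase gene Rit1 at -0.86. Intron reads could be tested for 10 of the 12 lower genes and had the same sign as the exon reads in 1, and for 9 of the 12 higher genes, in 6. Over all features the signs were the same in 5152 of 9892.

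S280A was also tested against the other constructs. Those comparisons share the S280A libraries with the one above. Junction reads were 21.7% to 21.9% of exon reads in the WT and S280D libraries. In the S280A and YFP libraries they were 22.7% to 23.2%. Group means differed from YFP by a median absolute log2 of 0.33 in WT, 0.379 in S280D and 0.191 in S280A. Calls of S280A against WT or S280D may therefore follow a library-wide split, and whether they are specific to S280A was not tested. Over all features S280A was called higher than WT for 10.1% and lower for 15.9%, and higher than S280D for 18% and lower for 21.3%. It was called above both for 1067 and below both for 1854 of the 12407 features. Of the 12 higher genes 1, Lyrm9, was called above both (log2 differences of 0.85 ± 0.18 and 1.07 ± 0.18, adjusted p = 0.0108 and 0.00228). Cav2 and Denr were called below both, since Cav2 stood at 48.4 and 42.5 CPM in WT and at 78.9 and 92.8 CPM in S280D. Ucp2 was called above WT, where it stood at 22.8 and 29.9 CPM (adjusted p = 0.0162), but not above S280D (adjusted p = 0.102). Of the 12 lower genes 3 were called below both, Pyurfl1, Rnf216 and Nfia, with WT and S280D libraries at 11 to 12.9, 70.4 to 75 and 23.2 to 25 CPM. Grpel2 did not pass against either, with 70.9 to 78.9 CPM in the WT and S280D libraries.

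No gene of the canonical PPAR target list passed the adjusted test in edgeR. Of 53 canonical targets listed, 49 were in the table, 36 had enough reads to be tested, 0 were called in either direction and 6 had no exon read in any of the 4 libraries. Those too low to test included Pdk4, which restrains glucose oxidation, with at most 1 read in a library, and the fatty acid carrier Cd36, with at most 5. Among the 36, 8 had an unadjusted p under 0.05 with higher values (22.2%, against 5.92% of all features) and 0 with lower values. Both S280A libraries were above both YFP libraries in 14 (38.9%, against 17.9% of all features) and below in 6 (16.7%, against 19.9%). The fold change was positive in 22 (61.1%, against 47.2%). The median log2 fold change was 0.08, against -0.02 for all features. The 8 became 4 without YFP replicate 2 and 5 without S280A replicate 1, and the median stayed between 0.04 and 0.15 over 21 alternatives.

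Angptl4, a secreted inhibitor of lipoprotein lipase, stood at 3.34 and 1.99 CPM in YFP and 7.72 and 4.91 CPM in S280A, a log2 fold change of 1.26 ± 0.3 (edgeR adjusted p = 0.238, DESeq2 adjusted p = 0.0167). The groups did not overlap, while its replicates differed more than those of Ucp2. Angptl4 stood at 7.6 and 9.65 CPM in WT, from which S280A did not differ by the test (adjusted p = 0.24), and at 19 and 18.3 CPM in S280D, above S280A (adjusted p = 0.00232).

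Genes of mitochondrial entry and oxidation were split. Cpt1a, which makes the acylcarnitines that enter mitochondria, stood at 19.4 and 13.8 CPM in YFP and 23.9 and 27.9 CPM in S280A, a log2 fold change of 0.64 ± 0.2 (adjusted p = 0.332). The muscle form Cpt1b, at 4.22 and 5.06 CPM against 5.97 and 5.07 CPM, gave 0.25 ± 0.22. The long-chain dehydrogenase gene Acadl stood at 35 and 34.2 CPM against 49 and 44.1 CPM, at 0.43 ± 0.13 (adjusted p = 0.301). The medium-chain gene Acadm was at -0.03 ± 0.24, and the trifunctional protein genes Hadha and Hadhb were at -0.14 and -0.16. Over the 25 tested genes of mitochondrial fatty acid oxidation, 2 had an unadjusted p under 0.05 with higher values (8%, against 5.92% of all features). On the lower side 0 did (0%, against 5.68%), and the median was -0.01. The 2 became 4 without S280A replicate 1 and 1 without YFP replicate 2. Eci1 and Acaa2, enzymes of the later steps, were at 0.3 and 0.3 with adjusted p of 0.459 and 0.467.

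**Figure D4:**
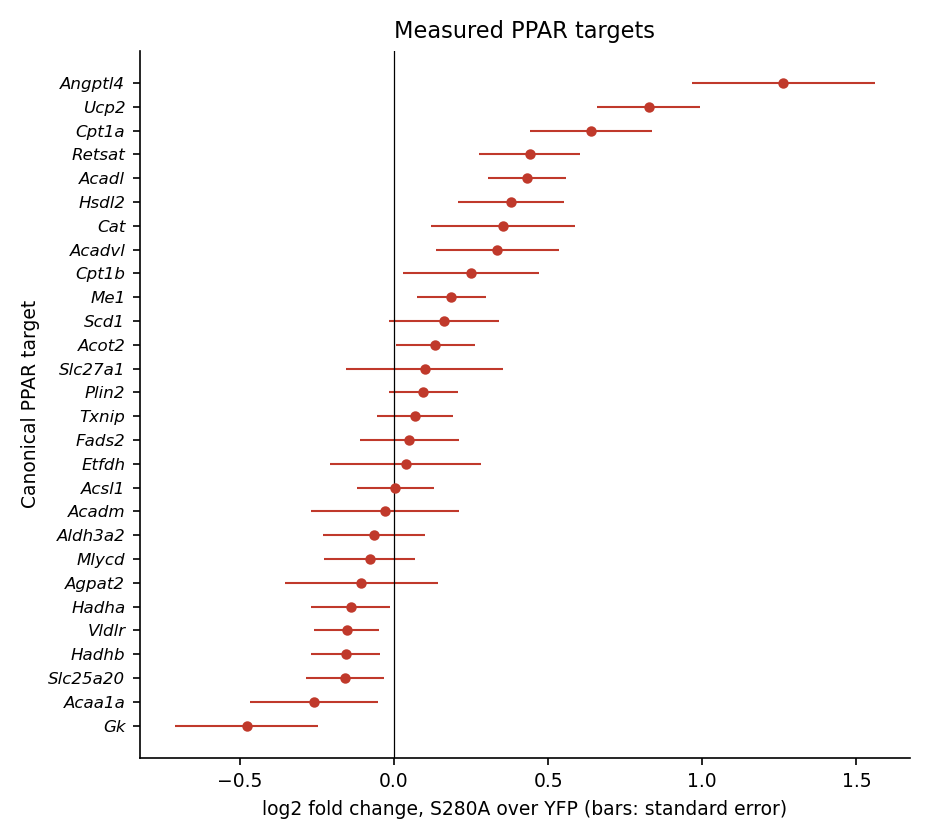
Log2 fold change of S280A over YFP (horizontal axis, bars are standard errors) for canonical PPAR targets with a mean of at least 5 CPM and for Angptl4 (vertical axis, ordered by value). Angptl4 and Ucp2 lie farthest to the right at 1.26 and 0.83, many enzymes lie within 0.2 of 0, and the glycerol kinase gene Gk is lowest at -0.48.

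Peroxisomal, uptake and storage genes had values on both sides of 0 as well. Of 21 peroxisomal genes tested, 4 had an unadjusted p under 0.05 with higher values (19%, against 5.92% of all features) and 0 with lower. They were Crat, a carnitine acetyltransferase, at 0.48, the bifunctional enzyme gene Ehhadh at 1.34 and under 2 CPM (0.31 without S280A replicate 1 and 1.93 without S280A replicate 2), the biogenesis gene Pex16 at 0.41 and Phyh, for phytanic acid oxidation, at 0.54. These 4 became 2, 1 and 2 without YFP replicate 1, YFP replicate 2 and S280A replicate 1. Of 13 uptake and activation genes 1 reached that p with a higher value, Fabp5, at or under about 1 CPM in every library, and the 1 became 0 without YFP replicate 1 or S280A replicate 1 and 2 without YFP replicate 2. That 1 of 13 was 7.69%, against 5.92% of all features. The receptor gene Vldlr stood at 888 and 933 CPM in YFP and 826 and 812 CPM in S280A, at -0.15 ± 0.11. The acyl-CoA synthetase gene Acsl1 was at 0 ± 0.12, with both signs among the alternatives. The acyl-CoA binding protein gene Dbi was at 0.24.

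Lipid droplet and triglyceride genes gave a median of -0.08 over 24 tested, and again 0 were called. Dgat2, the last step of triglyceride synthesis, was at 0.31 ± 0.14 (adjusted p = 0.421), and Lpin2 at -0.37. Pnpla2, the first lipase of triglyceride breakdown, was at 0.49, but 0.16% of its exon reads were unique. The droplet coat gene Plin2, often used to report PPAR activity, stood at 82.6 and 81.8 CPM in YFP and 83.5 and 92.2 CPM in S280A, at 0.1 ± 0.11 (adjusted p = 0.766). Retsat and Hsdl2, both listed targets, were at 0.44 and 0.38 with adjusted p of 0.383 and 0.427.

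Genes of receptor partners and kinases lay on both sides of 0. Of 23 receptors and cofactors 2 had an unadjusted p under 0.05 with higher values, Hdac3 among them, and 2 with lower values, Ncor1 and Nr2f2. Each of these counts was 8.7%, against 5.92% of all features with higher values and 5.68% with lower. Ncor1, a corepressor, stood at 64.4 and 85.5 CPM in YFP and 62.1 and 47.3 CPM in S280A, a log2 fold change of -0.45 ± 0.17 (adjusted p = 0.383). Hdac3, a deacetylase of corepressor complexes, stood at 188 and 126 CPM against 207 and 237 CPM, at 0.5 ± 0.17. The orphan receptor gene Nr2f2 was at -0.43. S280A was called below WT and S280D for Ncor1, at 109 to 126 CPM in those libraries (adjusted p = 0.00772 and 0.00186). Of 14 kinase genes 2 reached an unadjusted p under 0.05 with higher values (14.3%, against 5.92% of all features). Among them was Gsk3b at 0.25, while Mapk3 was at 0.23. These 2 became 0 without YFP replicate 1, YFP replicate 2 or S280A replicate 1. The 2 higher receptors and cofactors became 3, 0 and 1 without YFP replicate 1, YFP replicate 2 and S280A replicate 2.

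Genes of the cell cycle were examined next. Of 29 genes tested 0 were called, and 8 had an unadjusted p under 0.05 with higher values (27.6%, against 5.92% of all features) and 0 with lower. Both S280A libraries were above both YFP libraries in 14 (48.3%, against 17.9%) and below in 2 (6.9%, against 19.9%). The median was 0.23. Foxm1, a transcription factor of mitotic genes, stood at 9.25 and 9.66 CPM in YFP and 15 and 14.3 CPM in S280A, a log2 fold change of 0.63 ± 0.17 (adjusted p = 0.293). Cdc20, the activator of the anaphase-promoting complex, stood at 37.8 and 37.4 CPM against 49.4 and 55.2 CPM, at 0.47 ± 0.13 (adjusted p = 0.286). The mitotic kinase gene Plk1 was at 0.46, but at -0.18 on junction reads, and Ccna2, under 2 CPM, at 1.78. The 8 became 5 without YFP replicate 1 and 4 without S280A replicate 1, and the median stayed between 0.12 and 0.36 over the alternatives.

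**Figure D5:**
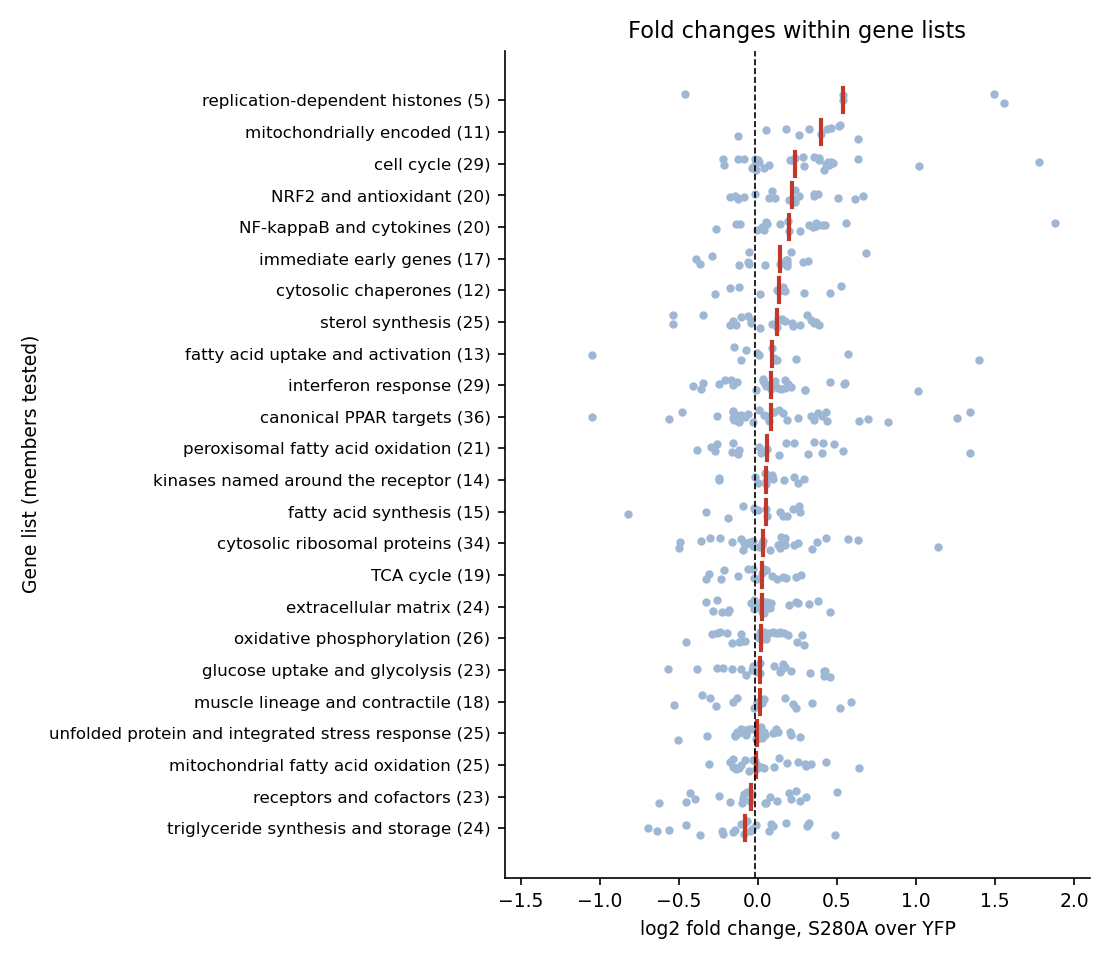
Log2 fold change of S280A over YFP (horizontal axis) of the tested members (blue points, jittered vertically) of 24 gene lists (vertical axis, number tested in brackets). Red bars are list medians and the dashed line is the median of all features, -0.02; the medians run from -0.08 to 0.54, and 2 values lie outside the axis.

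Mitochondrially encoded transcripts depended on S280A replicate 1. Of 11 tested 5 had an unadjusted p under 0.05 with higher values (45.5%, against 5.92% of all features). Both S280A libraries were above both YFP libraries in 4 (36.4%, against 17.9%), and the median log2 fold change was 0.4. Mt-nd2, a complex I subunit, stood at 174 and 180 CPM in YFP, at 309 CPM in S280A replicate 1 and at 196 CPM in replicate 2, and Mt-atp6 at 273 and 305 CPM against 488 and 341 CPM. Without S280A replicate 1 the 5 became 0 and the median 0.12, and without YFP replicate 1 they became 3 and 0.21. These transcripts took 0.506% and 0.604% of exon reads in YFP, 0.791% in S280A replicate 1 and 0.49% in replicate 2. S280A was called below WT in 9 and below S280D in 10 of the 11, against 15.9% and 21.3% of all features. The list medians over YFP were 1.11 in WT and 1.39 in S280D, so that these calls are part of the library-wide split given above. Nuclear genes of oxidative phosphorylation had a median of 0.02 over 26 tested, with Sdha of complex II at -0.46 ± 0.13 (adjusted p = 0.298).

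Glucose and inflammatory genes also stayed short of the threshold. Of 23 glycolysis genes 4 had an unadjusted p under 0.05 with higher values (17.4%, against 5.92% of all features). Among them were Eno3 at 0.46 ± 0.13 and Gpi at 0.42 ± 0.13. On the lower side 1 did (4.35%, against 5.68%), Tpi1 at -0.57, of whose reads 1.2% were unique. Eno1 was at 0.42, with 5.82% unique reads, and the 4 became 1 without YFP replicate 2 and 1 without S280A replicate 2. Of 20 NF-κB and cytokine genes 3 reached that p with higher values (15%, against 5.92% of all features) and 0 with lower. The 3 were Tnfaip3 and Rela at 0.42 and 0.32, and Ccl2, under 1 CPM in these 4 libraries. Csf1 was at 0.27, the list median was 0.2, and the 3 became 5 without YFP replicate 1 and 1 without YFP replicate 2. Of 29 interferon genes 5 were on the higher side and 1 on the lower, with Oasl at 0.55, and the 5 became 13 without YFP replicate 1, 1 without YFP replicate 2 and 2 without S280A replicate 2. The 5 and 1 interferon genes were 17.2% and 3.45%, against 5.92% and 5.68% of all features. Ccl2 and Gbp5 stood higher in WT than in S280A (adjusted p = 0.0152 and 0.00569).

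Antioxidant and sterol lists had medians of 0.21 and 0.12. Of 20 NRF2 targets and antioxidant genes 3 had an unadjusted p under 0.05 with higher values (15%, against 5.92% of all features) and 0 with lower. Txnrd1, thioredoxin reductase, stood at 371 and 313 CPM in YFP and 444 CPM in both S280A libraries, at 0.38 ± 0.13, and G6pdx was at 0.36. Hmox1, heme oxygenase, stood at 682 and 376 CPM against 791 and 826 CPM, with the YFP libraries farther apart than the group means. The 3 became 7 without YFP replicate 1 and 0 without YFP replicate 2. Of 25 sterol synthesis genes 1, Msmo1 at 0.31, reached that p (4%, against 5.92% of all features). Leaving out 1 of the 4 libraries moved the list median between 0.03 and 0.14. Both S280A libraries were above both YFP libraries in 10 (40%, against 17.9% of all features). S280A was called above WT in 11 and below it in 0, against 10.1% and 15.9% of all features. Against S280D it was called above in 9 and below in 2, against 18% and 21.3% of all features. The list medians over YFP were -0.4 in WT and -0.25 in S280D, and 0.12 in S280A. Of 34 ribosomal protein genes 4 were on the higher and 3 on the lower side, and the 4 became 7 without S280A replicate 1, 2 without S280A replicate 2, 6 without YFP replicate 1 and 1 without YFP replicate 2. The 4 and 3 ribosomal protein genes were 11.8% and 8.82%, against 5.92% and 5.68% of all features. Rpl13, at 1.14 ± 0.21, had 0% unique reads. The lists for the tricarboxylic acid cycle, fatty acid synthesis, stress responses, chaperones, matrix, muscle and immediate early genes had medians from -0.01 to 0.14 and no called member.

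Intron reads, a measure closer to unspliced RNA, were fitted in the same way over 12988 features. At the adjusted threshold edgeR called 2 features higher (0.0154%) and 0 lower (0%), with 9.76% at an unadjusted p under 0.05. Besides Ppara the call was U2_40, named after its values were seen, a copy of the U2 spliceosomal RNA, which went from 19.5 and 16.2 CPM to 83 and 144.9 CPM, a log2 fold change of 2.67 ± 0.33 (adjusted p = 0.00484). U2_40 was not among the features tested on exon reads, and what its intron reads come from was not tested. Without S280A replicate 1 edgeR called 63 features higher on intron reads, and without S280A replicate 2 it called 4 higher and 15 lower.

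Markers of the cell line were partly present. Acta2 and Tagln, smooth muscle and myoblast cytoskeleton genes, lay at 9550.4 to 14127 and 2529.7 to 3020 CPM in the 4 libraries, and the cardiac troponin gene Tnnt2 at 172 to 265 CPM. Desmin (Des) stayed under 1 CPM, and Myod1 had at most 6 reads in a library. Of 11 markers of adult cardiomyocytes 3 could be tested and together stood at 397 to 495 CPM. The median level of these 3 was 0.858 CPM, so that nearly all of the sum came from 1 gene. Myh6, Myh7 and Nppa were among the 8 that could not. Fibroblast genes summed to 56600 to 67477 CPM, mostly collagens, with Pdgfra and Tcf21 at or near 0. Of 9 leukocyte genes 2 could be tested and together stood at 20.6 to 25.8 CPM in the 4 libraries, while Ptprc and Adgre1 had no read. Of 9 myoblast markers tested 0 were called. An unadjusted p under 0.05 was reached by 2 with lower values (22.2%, against 5.68% of all features) and 1 with higher (11.1%, against 5.92%). Their log2 fold changes ran from -2.79 to 0.52, with Mef2c at -0.53 ± 0.19 (adjusted p = 0.381).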

How the data were processed

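RNA of H9C2 cells was sequenced as poly(A)-selected, directional paired-end libraries, per the labels' protocols. The deposited table gives read counts per feature and library (total exon, unique exon, intron and exon-exon reads) and the authors' own signed fold changes, a score below 0 where S280A was lower, with adjusted p-values from their EDGE test with tagwise dispersions, per the file headers. The build was Rnor_6.0, per the submitters' processing notes. The aligner, the annotation and the use of strand in counting, all not given in the sources used here, leave a limit: overlapping and antisense genes cannot be told apart.

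Total exon counts of all 8 libraries were filtered with filterByExpr, scaled by TMM and fitted with the quasi-likelihood test of edgeR 4.0.16 in R 4.3.3, with 1 coefficient per group, 4 residual degrees of freedom and Benjamini-Hochberg adjustment. An adjusted p under 0.05 is a call. DESeq2 1.42.0, unique, exon-exon and intron reads, other filters, scalings and lane terms, and leaving out each library, were alternatives. The fit was tested on simulated data. Depth ran from 14018785 to 39526013 exon reads per library. Of 626 list symbols 583 matched the table.

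Named were Ppara, every called feature, up to 12 genes in each direction with the smallest p (assigned symbol, a mean of at least 1 CPM, groups that do not overlap, at least 50% unique reads), up to 4 members of each list with the smallest p, PPAR targets of at least 5 CPM, and markers. Cav1 and U2_40, outside this rule, were chosen after their values were seen. A few genes within this rule are not reported here. The comparison and lists were chosen with earlier results of these data known.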

Additional observations from a re-analysis of the deposited data

How the results depend on the processing

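Alternatives left Ppara called and most other calls changed. For exon reads, features called higher numbered 5 in edgeR with all 8 libraries, 152 with no filter on low counts, 73 with DESeq2, 26 with only the 4 libraries compared and 2 with a lane covariate, and features called lower numbered 0, 126, 27, 12 and 0. An exon length offset gave 1 lower. Chosen after seeing the data, exon-exon reads gave 37 and 12, and features with at least 50% unique reads gave 2 higher. Leaving out 1 library gave 2 to 90 higher and 0 to 41 lower; the lone sample left in a group is then assumed to vary like the other groups. For intron reads, higher and lower calls numbered 156 and 108 with no filter, and 54 and 35 with DESeq2, with 1 lower in only 4 libraries and 2 to 63 higher and 0 to 15 lower without 1 library. The cause was not tested.

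Replicate numbers share only a number: deviations of same-numbered libraries correlated at -0.173. The replicate block gave 4 exon features higher and 0 lower, and 4 intron features higher. Crossed pairing, chosen after seeing the data, gave 354 and 180.

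Fold changes reversed for Dcaf4 (-0.30) and Plk1 (-0.18) on exon-exon reads, for Acsl1 (-0.026 with no filter, and -0.10 to 0.12 without 1 library) and for Acadm (-0.25 to 0.24 without 1 library).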
